A study of Mus musculus with 6 samples.

Results

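The gene Akr1c3 and 8 genes of prolactin and luteinising hormone (LH) signalling were described in ovarian RNA of adult female rats, 9 genes of the 22487 in the deposited table. They comprised Akr1c3 itself, the receptors Prlr and Lhcgr, the kinase Jak2, the transcription factors Stat5a and Stat5b, and the feedback inhibitors Cish, Socs2 and Socs3. Members were taken by gene name, each name occurred once, and all 9 passed the filter of a mean of at least 0.5 FPKM (fragments scaled by transcript length and library size) that left 15303 genes tested. Akr1c3 was chosen by its difference in counts between the groups, which was known, as was that of Lhcgr, and the other genes by their place in the same axis, so the values of the 9 genes in that contrast are a description and support nothing.

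RNA sequencing of poly(A) RNA covered 6 wild-type rat ovary libraries in 2 groups. In the first group 3 libraries came from rats that had been exposed to cowshed PM2.5, the fine fraction of airborne dust, and in the second 3 came from animals with no treatment. All titles carry 30 days without saying what the days count, and neither the dose, the route, the stage of the oestrous cycle nor whether each library was a separate animal is given in the labels, so any p-value here reflects only the scatter of these samples, which may be technical. The titles and every gene identifier are those of the rat, although the organism field names the mouse. The libraries held between 47662338 and 60749578 counts, and between 15526 and 472173 of these fell on Akr1c3, so counting error was small beside the spread between libraries for this gene.

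In the rodent corpus luteum, the gland that forms from the follicle after ovulation, progesterone output depends on both its synthesis and its breakdown. The enzyme 20α-hydroxysteroid dehydrogenase turns progesterone into a form that barely activates the progesterone receptor, and prolactin, acting through its receptor, JAK2 and STAT5, represses that enzyme's gene while the corpus luteum is functional. LH acts through a G protein-coupled receptor that raises cyclic AMP in theca, granulosa and luteal cells. In the deposited table, the row named Akr1c3 is annotated with progesterone catabolism and parturition and with the activity of 20α-hydroxysteroid dehydrogenase, so it is the row of that enzyme.

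Akr1c3 was lower in every library of the PM2.5 group than in any control library. Its level was 218, 983 and 1473 FPKM in PM2.5 libraries 1 to 3, against 3363, 3233 and 6721 FPKM in controls 1 to 3. The groups did not overlap, and PM2.5 library 1 was the lowest of all by a wide margin. The mean was 891 ± 633 FPKM in PM2.5 and 4439 ± 1977 FPKM in controls (SD, n = 3 each), and edgeR's quasi-likelihood fit on counts gave a log2 fold change of -2.34 ± 0.69 (SE). Akr1c3 did not pass a threshold of 0.05 after adjustment (adjusted p = 0.142 in edgeR, over all genes), whereas DESeq2 on the same counts gave an adjusted p of 0.00280. Leaving out 1 library at a time moved the log2 fold change between -2.91 and -1.86, with adjusted p between 0.135 and 0.383 in edgeR.

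Akr1c3 was among the most abundant transcripts of the control ovary. Ranked by FPKM among all genes of the table, it stood at 194, 26 and 19 in PM2.5 libraries 1 to 3, against 11, 10 and 6 in controls 1 to 3. It took 0.0293, 0.134 and 0.200% of all counts in the PM2.5 libraries and 0.460, 0.438 and 0.916% in the controls. Within the PM2.5 group its highest FPKM was 6.76 times its lowest, and within the controls 2.08 times, so as a ratio the PM2.5 libraries differed more among themselves. In FPKM units the controls differed more, with an SD of 1977 against 633 in PM2.5. In RNA of ovarian tissue, fewer cells of a type and less RNA per cell cannot be told apart.

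**Figure D1:**
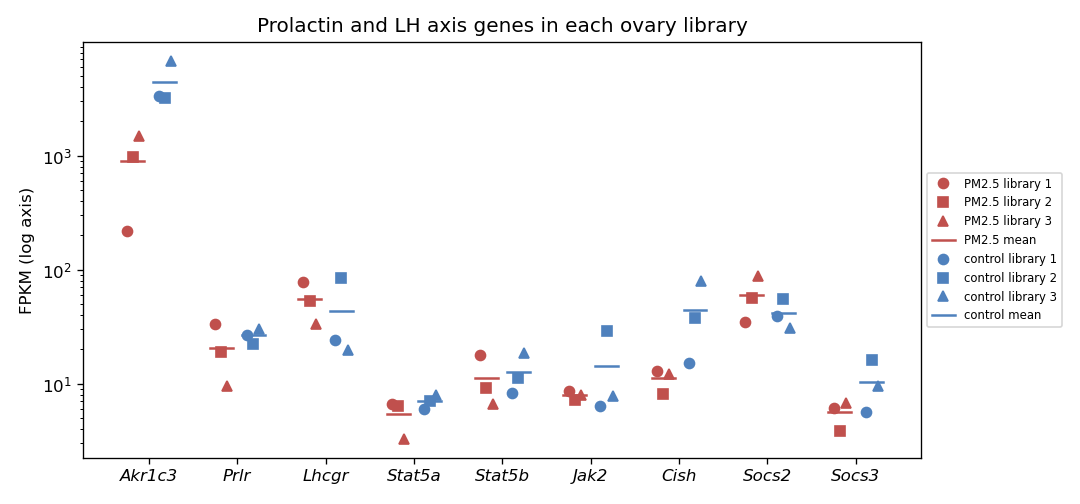
FPKM (log axis) of the 9 axis genes in each library, with PM2.5 libraries in red, controls in blue, marker shapes for library numbers and lines for group means. Akr1c3 and Cish are the genes whose PM2.5 points all lie below the control points, and control library 2 stands alone for Jak2.

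Taken as a set, 2 of the 9 genes had groups that did not overlap, Akr1c3 and Cish, both lower in PM2.5, and the other 7 overlapped. Among all genes tested 27.2% had groups apart, 15.2% with PM2.5 lower and 12.1% with PM2.5 higher, so the share of the 9 was near the background. None of the 9 passed the threshold of 0.05 in edgeR, with adjusted p between 0.133 and 0.837, against 0.928% of all genes. At an unadjusted p below 0.05 there were 2 of 9, Akr1c3 and Cish, against 20.9% of all genes. DESeq2 called the same 2, where it called 11.5% of all genes, and limma on log2(FPKM + 1) called none. Fold changes were below 0 for 7 of the 9, with a median log2 fold change of -0.38, against 49.6% and a median of 0.00 over all genes tested.

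The receptors of the 2 pituitary hormones were expressed in every library, and their groups overlapped. Prlr, the receptor of prolactin, had 33.5, 18.8 and 9.59 FPKM in PM2.5 libraries 1 to 3, against 26.9, 22.3 and 30.4 FPKM in controls 1 to 3. The PM2.5 libraries held both the highest and the lowest value, while the controls lay close together. The log2 fold change was -0.37 ± 0.42 (SE) over all 6 libraries, -0.91 when PM2.5 library 1 was left out and -0.03 when PM2.5 library 3 was. Lhcgr, the receptor of LH, had 78.8, 52.9 and 33.5 FPKM in PM2.5 libraries 1 to 3, against 24.1, 85.5 and 19.9 FPKM in controls 1 to 3. Control 2 was the highest of all, and the other two controls were below every PM2.5 library. Its log2 fold change was 0.37 ± 0.58 (SE), and 1.29 without control 2 (edgeR's quasi-likelihood adjusted p = 0.138). Per library, Lhcgr exceeded Prlr 2.35, 2.81 and 3.49 times in FPKM in PM2.5, against 0.894, 3.84 and 0.654 times in controls.

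JAK2, the kinase bound to the prolactin receptor, showed 1 library that stood apart. Jak2 had 8.68, 7.15 and 7.97 FPKM in PM2.5 libraries 1 to 3, against 6.33, 29.1 and 7.83 FPKM in controls 1 to 3. All libraries but control 2 lay in a narrow range, and the log2 fold change of -0.84 ± 0.54 (SE) became 0.13 without control 2. The same library had the highest values of the early response genes Nr4a1, at 519 FPKM against 30.6 to 99.2 FPKM in the other 5 libraries, and Egr1, at 390 FPKM against 14.5 to 43.1 FPKM. Whether these move with Jak2 and Lhcgr for 1 reason was not tested. Jak2 lies on the plus strand of chromosome 1 from 226995334 to 227054189. The relaxin gene Rln1 lies beyond it on the minus strand, with 25776 bases between the 2 genes.

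The STAT5 genes, whose products carry the prolactin signal to the nucleus, differed little between the groups. Stat5a had 6.64, 6.38 and 3.31 FPKM in PM2.5 libraries 1 to 3, against 5.998, 7.06 and 8.04 FPKM in controls 1 to 3, a log2 fold change of -0.38 ± 0.30 (SE). Stat5b had 17.9, 9.21 and 6.64 FPKM in PM2.5, against 8.24, 11.2 and 18.5 FPKM in controls, a log2 fold change of -0.19 ± 0.44 (SE). PM2.5 library 3 was the lowest of the 6 for both genes, and control 3 the highest. Stat5b was higher than Stat5a in all 6 libraries, 1.44 to 2.69 times in PM2.5 and 1.37 to 2.31 times in controls on the FPKM scale. The 2 genes are neighbours on chromosome 10, on opposite strands. Stat5b, on the minus strand, reaches position 85775668, and Stat5a, on the plus strand, begins at 85785537, with 9868 bases between them.

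Cish, Socs2 and Socs3 encode SOCS proteins, which STAT factors induce and which then damp the receptor that induced them, and none of the 3 genes passed. Cish had 13.0, 8.16 and 12.3 FPKM in PM2.5 libraries 1 to 3, against 15.3, 37.9 and 79.1 FPKM in controls 1 to 3. The groups did not overlap, but control 1 lay just above the highest PM2.5 library, and the controls spread 5.17 times from lowest to highest, against 1.59 times in PM2.5. The mean was 11.1 ± 2.60 FPKM in PM2.5 and 44.1 ± 32.3 FPKM in controls (SD, n = 3 each). The log2 fold change was -2.01 ± 0.57 (SE), did not pass (edgeR's quasi-likelihood adjusted p = 0.133), was -1.22 without control 3, and had an adjusted p of 0.00495 with DESeq2.

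Socs2, a STAT5 target that restrains growth hormone signalling, had 35.1, 56.3 and 88.0 FPKM in PM2.5 libraries 1 to 3, against 39.1, 55.0 and 30.9 FPKM in controls 1 to 3. The groups overlapped, PM2.5 library 3 was the highest, and the log2 fold change was 0.53 ± 0.35 (SE), with 0.14 when PM2.5 library 3 was left out. Socs3, which STAT3 also induces, had 6.20, 3.85 and 6.80 FPKM in PM2.5, against 5.64, 16.1 and 9.66 FPKM in controls. Control 2 was again the highest, and the log2 fold change was -0.89 ± 0.39 (SE), or -0.49 without control 2. As a share of the summed FPKM of all 8 SOCS genes, Cish made up 16.8, 9.10 and 9.39% in PM2.5 libraries 1 to 3, against 18.1, 25.6 and 54.4% in controls. The share of Socs2 was 45.6, 62.8 and 67.3% in PM2.5, against 46.2, 37.2 and 21.2% in controls, so Socs2 was the leading SOCS transcript everywhere except in control 3.

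**Figure D2:**
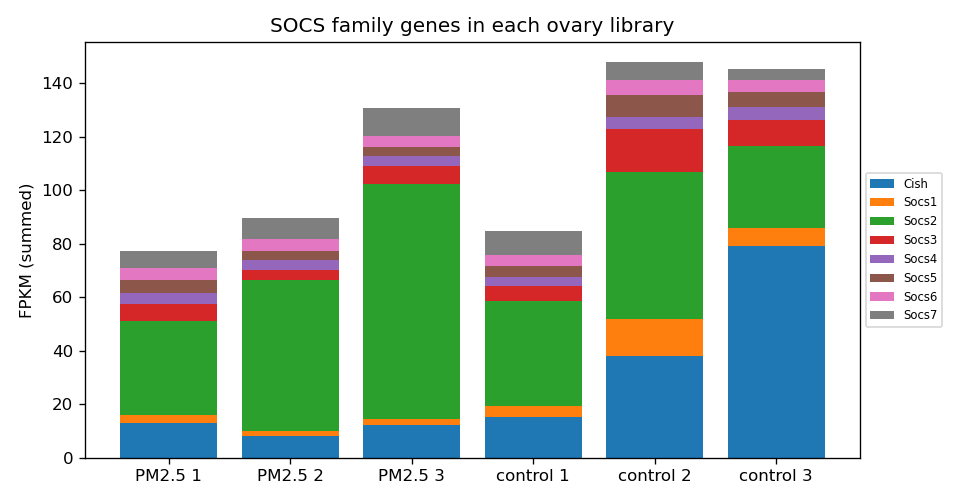
Stacked bars of the FPKM of the 8 SOCS genes in each library, PM2.5 libraries at the left and controls at the right. The Cish layer lies between 8.16 and 13.0 FPKM in PM2.5 and between 15.3 and 79.1 FPKM in controls, while Socs2 reaches 88.0 FPKM in PM2.5 library 3.

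By level, Akr1c3 came first of the 9 genes in all 6 libraries, and the other positions changed from library to library. Mean FPKM in PM2.5 ran in the order Akr1c3, Socs2 at 59.8, Lhcgr at 55.1, Prlr at 20.6, Stat5b at 11.2, Cish at 11.1, Jak2 at 7.93, Socs3 at 5.62 and Stat5a at 5.44. In controls it ran Akr1c3, Cish at 44.1, Lhcgr at 43.1, Socs2 at 41.6, Prlr at 26.5, Jak2 at 14.4, Stat5b at 12.7, Socs3 at 10.5 and Stat5a at 7.03. Ranges of neighbours in these orders overlapped, except Akr1c3 with the gene after it in both groups, Jak2 with Socs3 in PM2.5, and Socs2 with Prlr in controls.

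The Akr1c genes form a cluster on chromosome 17 between positions 65759788 and 66208061, as the table gives them on a build not given in the sources used here. Akr1c3 occupies 66110963 to 66127873 on the plus strand, and 2633 bases separate it from Akr1c12. The table held 8 Akr1c genes, of which 6 were tested, and the 2 others, Akr1c2 and Akr1c12l1, each had counts in 1 control library, 11 and 15 counts, and none elsewhere. Akr1c enzymes are aldo-keto reductases that act on steroids and other carbonyls, and their genes are similar enough that reads may be split between copies, so their values are uncertain.

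The other Akr1c genes did not share 1 direction. Akr1c13 had 0.891, 2.38 and 2.49 FPKM in PM2.5 libraries 1 to 3, against 6.60, 2.71 and 13.4 FPKM in controls 1 to 3, with a log2 fold change of -2.01 ± 0.68 (SE), and -1.26 without control 3. Akr1c14, which in the rat encodes 3α-hydroxysteroid dehydrogenase, had 89.7, 106 and 177 FPKM in PM2.5, against 71.9, 89.3 and 47.5 FPKM in controls, with a log2 fold change of 0.84 ± 0.32 (SE). Akr1c19 had 28.9, 30.4 and 45.4 FPKM in PM2.5, against 22.8, 20.4 and 18.0 FPKM in controls, with a log2 fold change of 0.77 ± 0.21 (SE). The groups were apart for these 3 genes, lower in PM2.5 for Akr1c13 and higher for Akr1c14 and Akr1c19, and overlapped for Akr1c12 (-0.93 ± 0.50) and Akr1c15 (-0.11 ± 0.43). None passed in edgeR, with adjusted p over all genes between 0.128 and 0.913, and DESeq2 called Akr1c13 and Akr1c19. Of all genes tested, 27.2% had groups apart and DESeq2 called 11.5%.

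Akr1c3 supplied 63.5, 86.9 and 86.0% of the summed Akr1c FPKM in PM2.5 libraries 1 to 3, against 96.8, 96.2 and 98.7% in controls. Akr1c14 amounted to 41.1, 10.7 and 12.0% of the Akr1c3 level in PM2.5, against 2.14, 2.76 and 0.707% in controls. Akr1c12 stood at 0.471, 0.282 and 0.174% of the Akr1c3 level in PM2.5, against 0.0781, 0.110 and 0.0864% in controls. Whether reads of Akr1c3 enter the Akr1c12 counts was not tested. Akr1c13 stood at 0.408, 0.242 and 0.169% in PM2.5, against 0.196, 0.0839 and 0.200% in controls. The body of Akr1c13 overlaps Akr1c12l1 on the same strand over 32617 bases, and its counts may include reads of that gene. Akr1c12l1 had 15 counts in control 3 and none elsewhere, whereas Akr1c3 had 15526 to 472173 counts against 80 to 1183 for Akr1c13. Reads of Akr1c3 may be among the Akr1c13 counts too, which was not tested.

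**Figure D3:**
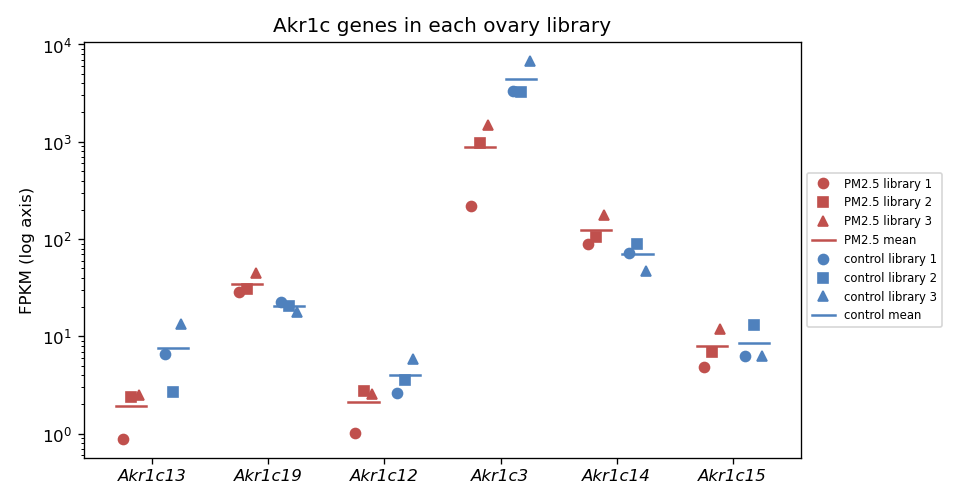
FPKM (log axis) of the 6 tested Akr1c genes in chromosomal order, PM2.5 libraries in red left of controls in blue, with lines for group means. Akr1c3 and Akr1c13 lie lower in all PM2.5 libraries, while Akr1c14 and Akr1c19 lie higher.

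Akr1c3 did not follow the genes of progesterone synthesis across the PM2.5 libraries, whereas within the controls it had the same order as Hsd3b1. Cyp11a1, the side-chain cleavage enzyme that starts steroid synthesis, had 3190, 1891 and 915 FPKM in PM2.5 libraries 1 to 3, against 974, 1057 and 1466 FPKM in controls 1 to 3. Hsd3b1, which completes progesterone, had 4520, 2085 and 1866 FPKM in PM2.5, against 2547, 2117 and 4126 FPKM in controls. PM2.5 library 1, which had the least Akr1c3, thus had the most Cyp11a1 and Hsd3b1. The ratio of Akr1c3 to Hsd3b1 was 0.0482, 0.471 and 0.790 in PM2.5, against 1.32, 1.53 and 1.63 in controls. The ratio to Cyp11a1 was 0.0684, 0.519 and 1.61 in PM2.5, against 3.45, 3.06 and 4.58 in controls. Both ratios were lower in every PM2.5 library, and they carry the group difference by which Akr1c3 was chosen. The ratio to Star, the cholesterol carrier of the mitochondrion, overlapped, at 0.171, 2.11 and 4.24 in PM2.5 and 4.24, 2.90 and 3.35 in controls.

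**Figure D4:**
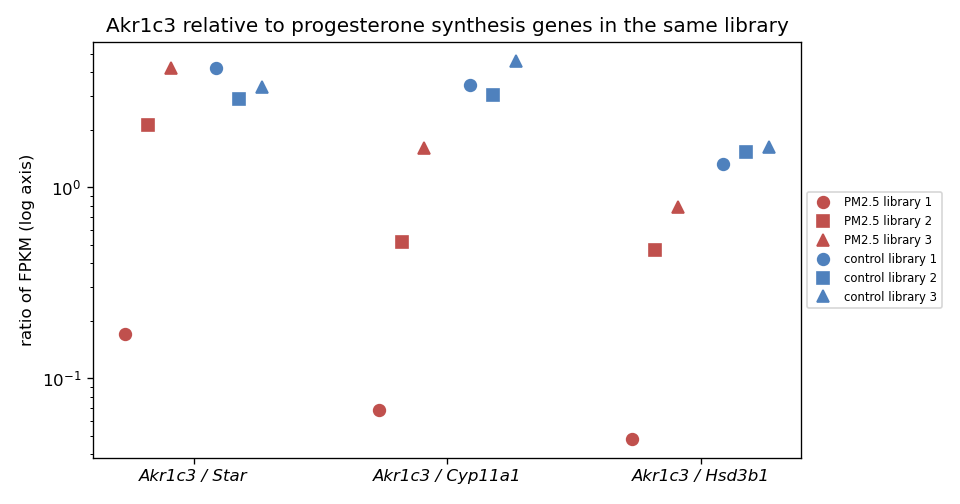
Ratio of Akr1c3 FPKM to that of Star, Cyp11a1 and Hsd3b1 in each library (log axis), PM2.5 in red left of controls in blue. The ratios to Cyp11a1 and Hsd3b1 are below all controls in each PM2.5 library, and PM2.5 library 1 is lowest for all 3.

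The content of luteal and other cells was read from marker lists beside these values. Summed FPKM of the 17 luteal genes other than Akr1c3, Prlr and Lhcgr was 12717, 7216 and 5122 in PM2.5 libraries 1 to 3, against 5968, 6408 and 10112 in controls 1 to 3, so the groups overlapped. Hsd3b1, Cyp11a1 and Star, the genes of the ratios above, made up most of this sum in each library. Of the 20 luteal genes 1 passed in edgeR, Rln1, where 0.928% of all genes tested passed. The same share stands beside the calls on the other marker lists. Granulosa cell genes summed to 1527, 3843 and 4561 FPKM in PM2.5, against 3344, 2845 and 764 FPKM in controls, and theca cell genes to 1367, 571 and 477 FPKM, against 912, 1305 and 2072 FPKM. Star is on both the luteal and the theca list and made up most of the theca sum in each library. The theca sum is therefore not a separate reading of theca cells. Groups were apart on 3 of the 13 marker lists. Erythroid genes summed to 753 to 1184 FPKM in PM2.5 and 190 to 220 FPKM in controls, and 3 of 4 tested passed, Hba-a1, Hbb and Alas2. Adipocyte genes summed to 31.2 to 60.0 FPKM in PM2.5 and 12.4 to 23.3 FPKM in controls, and T and NK cell genes to 9.22 to 10.5 FPKM in PM2.5 and 13.4 to 14.9 FPKM in controls, with 1 of 7 tested passing, Gzmb (granzyme B), which fell. On 3 further lists PM2.5 libraries 1 and 2 were the highest of all 6 while the groups overlapped, and none of their genes passed in edgeR. Oviduct epithelium genes summed to 68.9, 72.6 and 17.4 FPKM in PM2.5 libraries 1 to 3, against 10.7, 21.1 and 5.31 FPKM in controls 1 to 3. Surface epithelium genes summed to 132, 175 and 16.1 FPKM in PM2.5, against 15.9, 36.1 and 8.11 FPKM in controls. Smooth muscle and pericyte genes summed to 787, 1404 and 330 FPKM in PM2.5, against 377, 407 and 229 FPKM in controls, which places PM2.5 library 3 below 2 of the controls. No marker in the table was at 0 in all 6 libraries, and the part of these cells in the Akr1c3 and Cish values was not tested.

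The axis was also read over 7 lists written by function, with 182 genes of which 153 were tested. All 9 members are on these lists, Akr1c3 among the reductases and Cish among the SOCS genes and the STAT5 targets. The calls of these members are counted there again and are not further evidence. Over all 7 lists 2 of the 153 genes passed in edgeR's quasi-likelihood test, against 0.928% of all genes tested. Of these, 1 was higher, Rln1, and 1 lower, Fos. At an unadjusted edgeR p below 0.05 there were 43 of 153, against 20.9% of all genes tested. DESeq2 called 22, against 11.5% of all genes tested, and groups were apart for 27.2% of all genes tested. These shares of all genes stand beside the counts of each list below. Rln1 encodes relaxin, a luteal hormone of pregnancy in the rat, and it rose to 462, 628 and 462 FPKM in PM2.5 libraries 1 to 3, against 19.2, 9.18 and 47.5 FPKM in controls 1 to 3 (log2 fold change 4.32 ± 0.64 SE, adjusted p = 0.0442). With 1 library left out at a time its adjusted p was between 0.0621 and 0.230, so the call was lost each time, and its log2 fold change was 5.20 without control 3. Fos, a subunit of the AP-1 transcription factor, fell to 15.1, 12.3 and 13.5 FPKM in PM2.5, against 65.1, 168 and 59.4 FPKM in controls (log2 fold change -2.82 ± 0.40 SE, adjusted p = 0.0434), and with 1 library left out its adjusted p was 0.0247 without control 2 (log2 fold change -2.22) and between 0.0915 and 0.236 otherwise, where the call was lost.

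Of the ligands and type I cytokine receptors, 16 of 26 were tested, none passed in edgeR's quasi-likelihood test, 3 had an unadjusted p below 0.05 and DESeq2 called 1, lower in PM2.5. Prl itself, the gene of prolactin, was listed at 0.0474 FPKM in PM2.5 library 3 and at 0 in the other 5 libraries. Il2rb, the interleukin-2 receptor beta chain of lymphocytes, had a log2 fold change of -1.59 ± 0.39 (SE), Il6r, the interleukin-6 receptor, 0.68 ± 0.25, and Il4r, the interleukin-4 receptor, -1.16 ± 0.48, which was -0.48 without control 2 and whose groups overlapped. Among JAK, STAT and phosphatase genes 23 of 25 were tested, none passed, 5 had an unadjusted p below 0.05 and DESeq2 called 2, 1 in each direction. Fold changes were above 0 for 8 and below 0 for 15, with a median of -0.19. Ptpn6, the phosphatase SHP-1 that switches off cytokine receptors, had 2.11, 1.60 and 1.40 FPKM in PM2.5, against 4.12, 3.11 and 3.69 FPKM in controls (log2 fold change -1.10 ± 0.26). Tyk2, another Janus kinase, had a log2 fold change of -0.74 ± 0.23 and the adaptor Gab2 0.71 ± 0.21, with groups apart for all 3.

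All 8 SOCS genes were tested, and 6 lay below 0 with a median log2 fold change of -0.40, none passing in edgeR's quasi-likelihood test, 3 at an unadjusted p below 0.05 and 2 lower with DESeq2. Beside Cish, Socs1, an inhibitor of interferon and cytokine receptors, had 2.99, 1.9 and 2.07 FPKM in PM2.5 libraries 1 to 3, against 4.05, 14.0 and 6.66 FPKM in controls 1 to 3 (log2 fold change -1.81 ± 0.49). Its groups were apart and control 2 was the highest. Socs5 overlapped, with a log2 fold change of -0.70 ± 0.27.

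Known targets of prolactin and STAT5 numbered 27, of which 24 were tested, with 14 above 0, 10 below and a median log2 fold change of 0.38. Rln1 alone passed in edgeR, 7 had an unadjusted p below 0.05, and DESeq2 called 5, 3 higher and 2 lower. Id1, an inhibitor of helix-loop-helix factors, had 111, 106 and 156 FPKM in PM2.5, against 55.8, 75.4 and 49.5 FPKM in controls (log2 fold change 1.04 ± 0.21), and its groups were apart. Groups were apart in scaled counts for 9 of the 24, against 27.2% of all genes tested. Beside Rln1 and Id1, Bcl2l1, Esr2 and Igf1 were higher in PM2.5, and Cish, Bcl6, Pim2 and Ccnd1 were lower. A2m, Bcl6, Bcl2l1, Esr2, Igf1, Pim2 and Ccnd1 were picked after their values were seen. A2m, a protease inhibitor that prolactin induces in the rat corpus luteum, had 169, 45.1 and 17.2 FPKM in PM2.5, against 19.1, 13.9 and 34.2 FPKM in controls, so the groups overlapped and PM2.5 library 1 was far above the rest. Bcl6, a repressor that STAT5 lowers in other cells, had 4.13, 5.36 and 6.76 FPKM in PM2.5, against 7.73, 9.54 and 25.2 FPKM in controls (log2 fold change -1.41 ± 0.49), with groups apart.

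In LH receptor signalling 39 of 42 genes were tested, none passed in edgeR's quasi-likelihood test, 7 had an unadjusted p below 0.05 and DESeq2 called 3, all lower. Fold changes were above 0 for 18 and below 0 for 21, with a median of -0.04. Rgs2, a regulator that shortens G protein signals and that LH induces, had 42.6, 37.9 and 55.9 FPKM in PM2.5, against 111, 426 and 182 FPKM in controls (log2 fold change -2.39 ± 0.48, and -1.73 without control 2), with groups apart and control 2 highest. Pde4a, a phosphodiesterase of cyclic AMP, had a log2 fold change of -1.30 ± 0.32 with groups apart. Crem, a cyclic AMP-responsive transcription factor, had 9.26, 6.21 and 7.20 FPKM in PM2.5, against 7.86, 63.9 and 18.8 FPKM in controls, and overlapped (log2 fold change -1.98 ± 0.68, and -0.86 without control 2).

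Among genes of luteolysis and of 20α-hydroxysteroid dehydrogenase regulation, 31 of 35 were tested, with 11 above 0, 20 below and a median of -0.43 on the log2 scale. Fos alone passed in edgeR. At an unadjusted edgeR p below 0.05 there were 14 of 31, against 20.9% of all genes tested. Groups were apart for 13, against 27.2% of all genes tested. DESeq2 called 7, 4 higher and 3 lower, against 11.5% of all genes tested. Fosl2, an AP-1 subunit, had a log2 fold change of -1.79 ± 0.43, and Gata6, a transcription factor of granulosa and luteal cells, 1.37 ± 0.34, both with groups apart. Nr4a1, which mediates the induction of this enzyme's gene by prostaglandin in the rat, had 64.2, 33.6 and 30.6 FPKM in PM2.5, against 47.8, 519 and 99.2 FPKM in controls, and overlapped. Ptgfr, the receptor of that prostaglandin, had 40.0, 16.9 and 12.3 FPKM in PM2.5, against 16.6, 18.0 and 43.5 FPKM in controls. Jund, an AP-1 subunit linked to the same induction in the rat, had 149, 145 and 153 FPKM in PM2.5, against 168, 190 and 160 FPKM in controls (log2 fold change -0.21 ± 0.13). Nr4a1, Ptgfr and Jund were named after their values were seen. In the reductase list 19 of 26 were tested, 9 above 0 and 10 below, with a median of -0.11. None passed in edgeR's quasi-likelihood test. At an unadjusted edgeR p below 0.05 there were 6, and DESeq2 called 4, 2 in each direction, with Akr1c3 in both counts. Akr1b7, an aldo-keto reductase of steroid-producing cells, had 7.49, 31.0 and 9.92 FPKM in PM2.5, against 3.87, 3.29 and 6.32 FPKM in controls (log2 fold change 1.82 ± 0.58, and 0.93 without PM2.5 library 2).

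**Figure D5:**
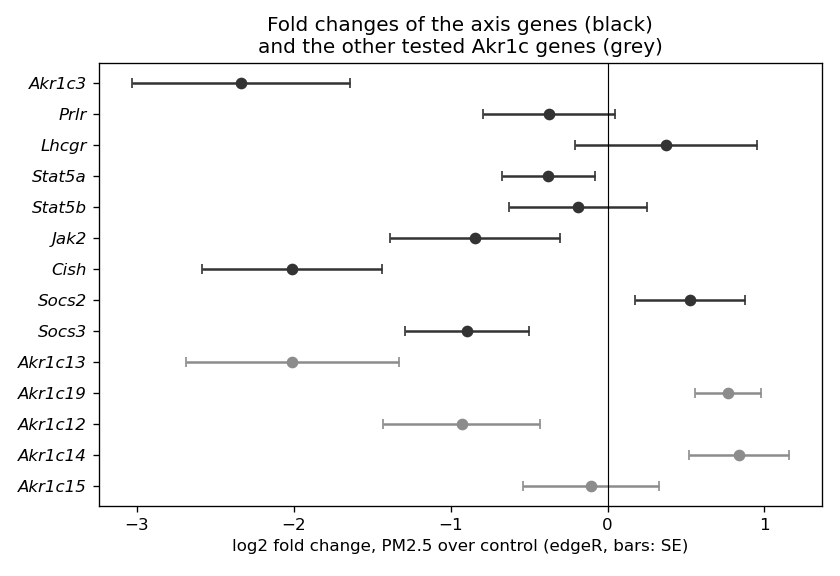
Log2 fold changes, PM2.5 over control, from edgeR's quasi-likelihood fit for the 9 axis genes (black) and the 5 other tested Akr1c genes (grey), with bars for SE. Akr1c3 at -2.34, Cish at -2.01 and Akr1c13 at -2.01 lie farthest to the left, and none of the 14 passed over all genes.

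The genes whose profile over the 6 libraries came closest to that of Akr1c3 were found by the root mean square distance between log2(CPM + 1) values, each gene centred on its own mean, among 13074 named genes that averaged 1 FPKM or more. The 6 nearest were LOC681458, annotated as similar to stearoyl-coenzyme A desaturase 3, at a distance of 0.247, the transcriptional regulator Nupr1 at 0.310, Nupr1l1 at 0.395, the zinc finger gene Zfp347 at 0.406, Ttc22 at 0.485 and the podocan-like gene Podnl1 at 0.498, against a median of 1.63 over all candidates. The table places Nupr1 inside Nupr1l1 on the opposite strand, so without a known strand setting the 2 may share reads and may not be separate neighbours. Nupr1, a stress-induced chromatin protein, had 9.79, 27.3 and 45.1 FPKM in PM2.5 libraries 1 to 3, against 159, 144 and 245 FPKM in controls 1 to 3. It repeats the order of Akr1c3 within both groups, lowest in PM2.5 library 1 and highest in control 3. Akr1c13 ranked 33, Akr1c12 124 and Cish 230 by this distance, and Akr1c19 and Akr1c14 ranked 11106 and 11561. The likeness includes the difference between the groups and is a description over 6 libraries.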

How the data were processed

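RNA of ovarian tissue in 3 PM2.5 and 3 control rats' libraries was read from 1 table, and the titles do not say whether whole ovaries were taken. Per the submitters' processing notes, the tools were edgeR, DESeq2, StringTie 2.1.6, HISAT2 2.2.1 and cutadapt 1.9, without stated roles. The genome build, annotation and strand setting, not given in the sources used here, may bear on similar or antisense genes. No other gene in the table overlapped any of the 9 genes by position. The authors deposited whole-number counts per gene, used for tests, and FPKM values, the authors' own scaling by length and library total, used for levels and for the filter of a mean of at least 0.5 FPKM. CPM values are counts scaled to a common total with TMM factors.

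The main test was edgeR 4.0.16 (R 4.3.3), TMM, glmQLFit and glmQLFTest, two-sided, with Benjamini-Hochberg adjustment over 15303 genes at 0.05. The SE is the fold change divided by the square root of F. No design text gave a test. DESeq2 1.42.0 and limma 3.58.1 were alternatives, with other scalings and filters, the replicate number as a block, and each library left out in turn. The fit was tested on simulated counts. Genes named beyond the 9 were those called in each list or the 3 with the smallest p, all Akr1c genes, the 6 nearest profiles and abundant markers, and Cyp11a1, Egr1, Alas2 and those marked in the text were named after their values were seen. The members and lists were chosen with earlier results of these data known. A mouse reference was not used, and no sequence is shown.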

Additional observations from a re-analysis of the deposited data

How the results depend on the processing

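The number of genes changed was 142 (29 higher and 113 lower). RLE size factors gave 130, library size alone 166 and a mean of at least 1 FPKM 155. With limma there were 156 on log2(FPKM + 1) and 180 on log2(FPKM + 0.1). Testing unfiltered genes gave 8, filterByExpr 87, DESeq2 1767 (731 higher and 1036 lower), the replicate block 1, and fits without 1 library 0 to 7. The axis genes changed numbered 0, and 2 with DESeq2, Akr1c3 and Cish. Genes changed in the 7 functional lists numbered 2, with 0 for unfiltered genes, 1 for filterByExpr, 22 for DESeq2, 0 for the replicate block and 0 to 1 for fits without 1 library. The other scalings, the filter at 1 FPKM and limma also gave 2. Same-numbered libraries were not shown to be paired, since their deviations correlated at -0.296, 0.133 and -0.0525, and in the replicate block Akr1c3 was at -2.61 (edgeR's quasi-likelihood adjusted p = 0.153) and Cish at -1.75 (0.251). Signs turned for Jak2 without control 2 (0.13), Stat5b without control 3 (0.24) and without PM2.5 library 3 (0.08), and Akr1c15 without control 2 (0.29) and without PM2.5 library 1 (0.15), none of them past the threshold in any of these fits. With each library left out in turn, log2 fold changes ran from -1.19 to 0.13 for Jak2, from -0.69 to 0.24 for Stat5b and from -0.53 to 0.29 for Akr1c15. Of 135 values for the 9 genes under the alternatives, 130 kept their direction and side of the threshold, 2 gained a call and 3 turned sign. The cause of the differing counts was not tested, except that a fit without a library has fewer samples.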
